A study of Saccharomyces cerevisiae with 2 samples.

Results

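Short open reading frames lying between annotated genes were followed where they flank a noncoding RNA gene. An intergenic ORF (IGORF) here is a stretch with no in-frame stop codon that ends at the next stop. It was taken as RNA-flanking when it overlapped, or lay within 200 nt on the same strand of, a tRNA, rRNA, snoRNA or snRNA gene of the R64 RefSeq annotation. This rule uses positions only and no read counts. It chose 1375 of the 78989 IGORFs, which is 1.74%. Of these, 1036 lay beside tRNA genes, 294 beside snoRNA genes, 29 beside snRNA genes and 16 beside rRNA genes. By side, 619 were upstream of the RNA gene, 723 were downstream and 33 overlapped its end.

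The reads are ribosome footprints of 1 group of 2 replicate libraries. Both came from BY4742, a haploid budding yeast (Saccharomyces cerevisiae) used in laboratories, which has mating type alpha and carries deletions of HIS3, LEU2, LYS2 and URA3. The cells had been grown in synthetic medium to mid-exponential phase and received cycloheximide, which stalls elongating ribosomes, at 50 µg/mL. Footprints were cloned with a small RNA library kit. There is no second condition, so libraries are compared only with each other. Separate cultures are not stated for them. The p-values measure only how far a split of reads between these libraries departs from counting error, and such a departure may be technical.

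Noncoding RNA genes are transcribed, but their products are not translated. Transfer RNA genes are read by RNA polymerase III from promoters inside the gene, and RNase P removes a short 5′ leader from the transcript. Most yeast snoRNA genes are read by RNA polymerase II as longer precursors, alone or in clusters, from which nucleases trim the flanks. Box C/D snoRNAs guide ribose methylation of ribosomal RNA, and box H/ACA snoRNAs guide pseudouridylation. The snRNAs form the core of the spliceosome. An IGORF upstream of such a gene can therefore lie in a transcribed flank or outside any transcript, and the files do not say which.

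The sequences of 6 IGORFs are shown here, 5 upstream of snoRNA genes that held most of the RNA-flanking reads and the leading 1 downstream of a tRNA gene. They are from the RefSeq R64 reference, on the strand of the IGORF, with the first in-frame ATG and the stop codon in capitals.
SNR78 upstream, chrXIII:297088-297192, plus strand: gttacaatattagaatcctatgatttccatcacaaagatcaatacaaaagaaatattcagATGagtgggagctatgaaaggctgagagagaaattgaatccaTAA
SNR87 upstream (far), chrXI:431279-431407, minus strand: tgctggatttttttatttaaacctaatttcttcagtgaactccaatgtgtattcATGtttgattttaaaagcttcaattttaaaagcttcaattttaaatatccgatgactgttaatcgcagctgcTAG
SNR87 upstream (near), chrXI:431209-431298, minus strand: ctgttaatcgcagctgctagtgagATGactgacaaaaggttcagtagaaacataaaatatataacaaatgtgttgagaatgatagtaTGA
SNR60 upstream, chrX:349333-349431, minus strand: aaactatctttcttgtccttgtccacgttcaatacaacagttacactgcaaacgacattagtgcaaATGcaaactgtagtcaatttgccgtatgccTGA
SNR62 upstream, chrXV:409942-410010, minus strand: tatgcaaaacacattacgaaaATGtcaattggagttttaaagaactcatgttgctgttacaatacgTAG
tRNA-Leu gene YNCL0032C downstream, chrXII:592333-592479, minus strand: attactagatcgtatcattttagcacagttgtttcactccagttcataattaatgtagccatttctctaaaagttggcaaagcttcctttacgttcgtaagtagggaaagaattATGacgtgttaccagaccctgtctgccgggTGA

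Depth limits every value that follows. All IGORFs together held 15116 reads in replicate 2 and 4057 in replicate 1. The annotated coding sequences (CDSs) held 2733591 reads in replicate 2 and 23437283 in replicate 1, the opposite order. Values are therefore given as shares of all IGORF reads of the same library, which rest on 1 table each. Whether each IGORF table carries the right replicate number was not tested. Intervals are 95% and cover counting error only. They treat IGORFs as separate, although 1154 of the 1375 share bases with another of the set, which merges into 591 stretches.

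RNA-flanking IGORFs took a larger share of the reads than of the sequence, but few of them were read at all. They held 603 reads in replicate 2, or 3.99% of its IGORF reads (Wilson interval 3.69% to 4.31%), and 158 in replicate 1, or 3.89% (3.34% to 4.53%). The mean share was 3.94% ± 0.067 (SD, n = 2), against 1.68% of IGORF bases. At least 1 read was counted in 69 RNA-flanking IGORFs in replicate 2 and in 30 in replicate 1. These are 5.02% (exact interval 3.93% to 6.31%) and 2.18% (1.48% to 3.10%) of the set, beside backgrounds of 4.89% and 2.07% over all IGORFs. Reads in both libraries were found in 20 of the set, or 1.45% (0.891% to 2.24%), against 1.13% of all IGORFs. Only 1 had at least 10 reads in each library, against a background of 0.0367%. The share of IGORFs with a read was thus near the background, and the excess lay in the number of reads of a few.

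Those few lay upstream of snoRNA genes. The IGORF with the most reads held 20.2% of the RNA-flanking reads of replicate 2 and 51.3% of those of replicate 1. The 20 leading IGORFs held 85.4% in replicate 2 and 92.4% in replicate 1, while 1296 of the 1375 had no read in either library. By RNA gene, the largest sums were those beside SNR87, with 207 reads in replicate 2 and 8 in replicate 1, and beside SNR78, with 123 and 82. In replicates 2 and 1, SNR60 had 73 and 1, SNR62 had 47 and 6, and YNCE0028C, a tRNA-Arg gene, had 17 and 9. Without the IGORFs beside SNR78, SNR87, SNR60 and SNR62, the others kept 1.01% of the IGORF reads of replicate 2 and 1.50% of replicate 1. Both values are below the 1.68% of IGORF bases that the whole set covers. These genes were picked for their reads, however, while the IGORFs outside the set kept all of theirs. The comparison therefore cannot show that the rest of the set was read less than other IGORFs.

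The 166 IGORFs upstream of snoRNA genes are 0.210% of all IGORFs. They held 467 reads in replicate 2, 3.09% of its IGORF reads (2.83% to 3.38%), and 105 in replicate 1, or 2.59% (2.14% to 3.12%). At least 1 read was counted in 18 of them in replicate 2, or 10.8% (6.55% to 16.6%), and in 12 in replicate 1, or 7.23% (3.79% to 12.3%). Both shares lay above the backgrounds of 4.89% and 2.07%, and 9 IGORFs were read in both libraries. Without the SNR78 IGORF that led in reads, the group kept 345 reads in replicate 2 and 24 in replicate 1. Its share of IGORF reads was then 2.28% in replicate 2 and 0.592% in replicate 1, so the value of replicate 1 rests largely on that one IGORF.

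The group was also examined away from coding genes. With no CDS within 200 nt on the same strand, 131 IGORFs upstream of snoRNA genes remained, and they held 392 reads in replicate 2 and 104 in replicate 1. Of these, 11.5% (6.55% to 18.2%) had a read in replicate 2 and 8.40% (4.27% to 14.5%) in replicate 1. Over all 50338 IGORFs in that surrounding, the shares were 3.71% in replicate 2 and 1.30% in replicate 1. The 174 IGORFs upstream of a snoRNA gene but on the other strand held 11 reads in replicate 2 and 0 in replicate 1. A read was found in 5.17% of these (2.39% to 9.59%) in replicate 2, near the background.

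**Figure D1:**
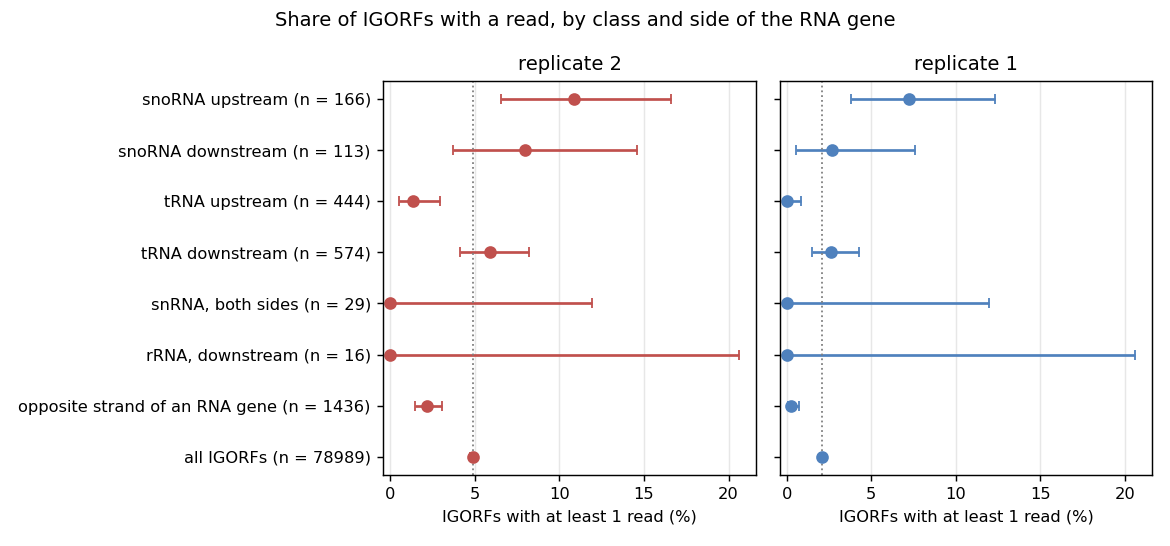
Share of IGORFs with at least 1 read (percent, points) with exact 95% intervals (bars), by class of the neighbouring RNA gene and side, for replicates 2 and 1. IGORFs upstream of snoRNA genes stand at 10.8% and 7.23%, and those upstream of tRNA genes at 1.35% and 0%.

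The plot of shares by class and side shows the same ends in both libraries: among the groups of over 100 IGORFs, those upstream of snoRNA genes were highest and those upstream of tRNA genes lowest.

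The IGORF upstream of SNR78 held the most RNA-flanking reads of both libraries together. SNR78 is the leading gene of a cluster of 7 box C/D snoRNA genes made from 1 precursor. The IGORF ends 85 nt before the gene, and the nearest CDS on its strand, BUD22, is 1675 nt away. It held 122 reads in replicate 2 and 81 in replicate 1, which placed it at rank 3 of all IGORFs by mean share. Per length this is 1162 reads per kb in replicate 2 and 771 in replicate 1, against 1.77 and 0.474 over all IGORFs in the same libraries. The SNR78 IGORF was high in both libraries, and it alone of the set passed 10 reads in each. From its first ATG to the stop it runs 45 nt, or 14 codons before the stop. All 123 reads of replicate 2 and 82 of replicate 1 in the 8 IGORFs beside the cluster lay in the 4 upstream of SNR78, and the 4 beside its other genes had none.

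Upstream of SNR87, a box C/D snoRNA gene, 2 IGORFs in different frames share 20 bases and were both read. The far one, 140 nt before the gene, held 167 reads in replicate 2 and 7 in replicate 1. The near one, at 70 nt, held 35 in replicate 2 and 1 in replicate 1. Both were high in replicate 2 and low in replicate 1, unlike the SNR78 IGORF. The nearest CDS on the strand, SFT1, a Golgi SNARE, lies 646 nt from the far IGORF. Per length the far one had 1295 reads per kb in replicate 2 and 54.3 in replicate 1. Its ATG opens a frame of 75 nt with its stop, and that of the near one a frame of 66 nt.

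SNR60 and SNR62, also box C/D genes, followed. The IGORF 99 nt upstream of SNR60 had 72 reads in replicate 2 and 1 in replicate 1. It also lies 154 nt upstream of the coding gene YJL047C-A and 148 nt downstream of RTT101, and these positions cannot be told apart for its reads. Its ATG-to-stop frame is 33 nt. The IGORF 77 nt upstream of SNR62 had 39 reads in replicate 2 and 5 in replicate 1. A second one, in another frame at 57 nt, had 5 in replicate 2 and 1 in replicate 1. The SNR62 pair was read in both libraries. As shares of IGORF reads, the IGORF at 77 nt had 0.258% in replicate 2 and 0.123% in replicate 1. The one at 57 nt had 0.0331% and 0.0246%, so the counts differ more than the shares.

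**Figure D2:**
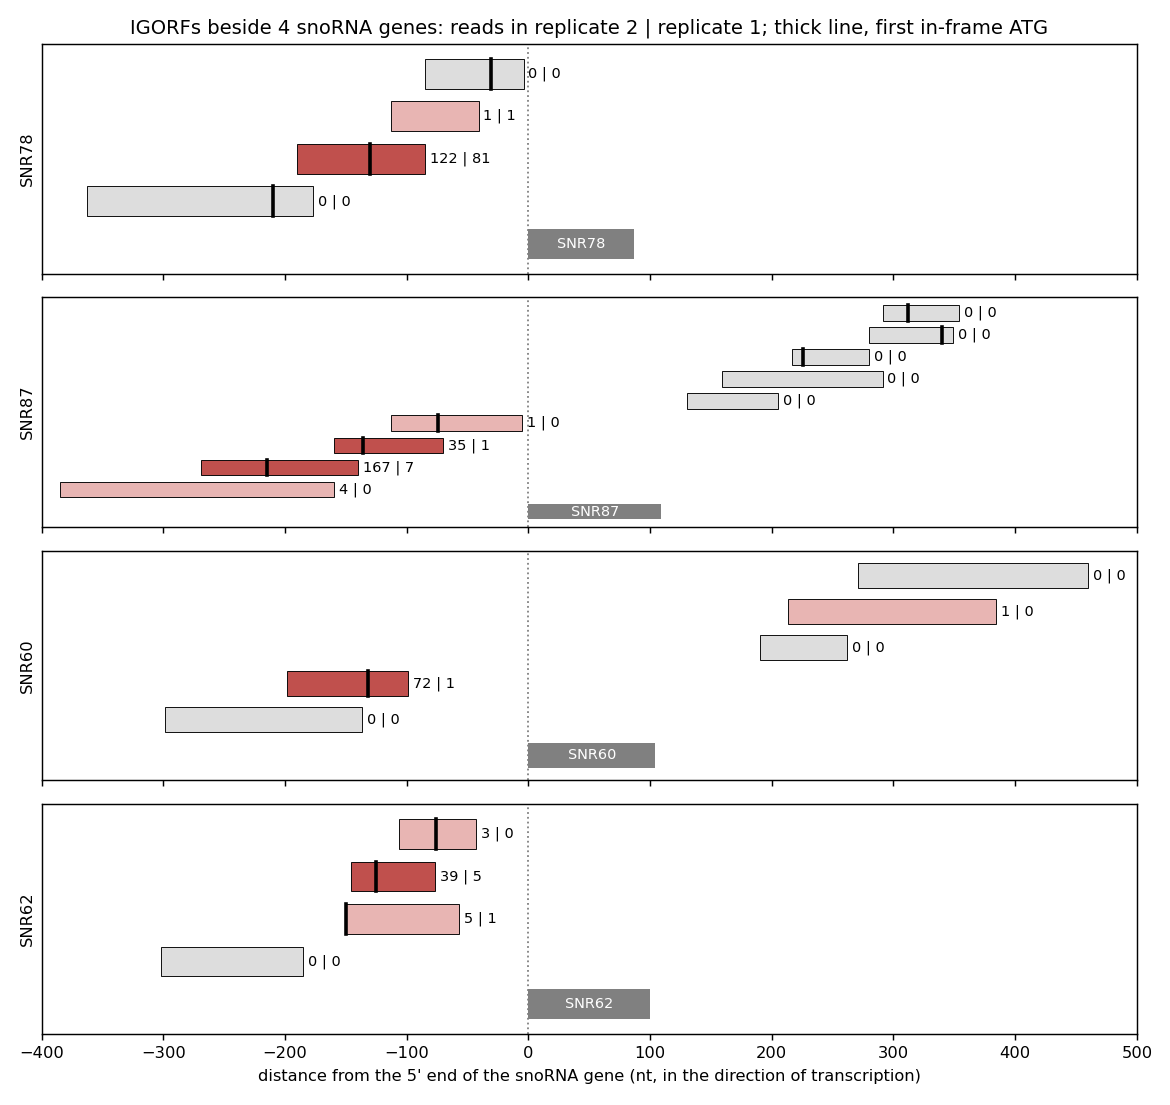
IGORFs around SNR78, SNR87, SNR60 and SNR62, drawn in the direction of transcription, with distance from the start of the RNA gene on the x axis (nt). Each IGORF has its own line, ordered by its first base, so lines do not stand for reading frames. Numbers beside the bars are reads in replicate 2 and replicate 1, and the 6 IGORFs named in the text lie upstream, 57 to 140 nt from the gene.

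The map of these loci shows that, apart from the 6 named IGORFs, those around these genes had at most 4 reads in a library. The only read one downstream, at SNR60, had 1 read in replicate 2. Counts of overlapping IGORFs were not copies of each other. Over all IGORFs there are 18709 pairs in which 1 lies wholly inside another on the same strand. The inner IGORF had a read in 629 pairs, and in 456 of them (72.5%) it had more reads than the outer in a library. Reads were therefore not counted in every IGORF they overlap, so a count of 0 does not mean that no footprint touched the sequence. How a read was given to 1 frame is not stated in these sources.

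Nearly all reads upstream of snoRNA genes lay beside the box C/D family. The 95 IGORFs upstream of box C/D genes held 465 reads in replicate 2 and 104 in replicate 1. The 66 upstream of box H/ACA genes held 2 in replicate 2 and 1 in replicate 1. At least 1 read was counted in 16 of the C/D group in replicate 2, or 16.8% (9.94% to 25.9%), and in 11 in replicate 1, or 11.6% (5.92% to 19.8%). In the H/ACA group it was 2 in replicate 2, or 3.03% (0.369% to 10.5%), and 1 in replicate 1, or 1.52% (0.0384% to 8.16%). The groups also differed in ATG content: an in-frame ATG was present in 51.6% of the C/D group and in 31.8% of the H/ACA group. Its part in the difference in reads was not tested. By gene, 12 of the 29 C/D genes with an upstream IGORF had a read in at least 1 library, against 2 of 24 H/ACA genes. Without SNR78, SNR87, SNR60 and SNR62, the 81 remaining C/D IGORFs had 16 reads in replicate 2 and 7 in replicate 1. Their shares with a read were 7.41% (2.77% to 15.4%) in replicate 2 and 4.94% (1.36% to 12.2%) in replicate 1, and these intervals overlap those of the H/ACA group.

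Other snoRNA arrangements had few reads. The 7 IGORFs beside the SNR57, SNR55 and SNR61 cluster held 1 read in replicate 2 and 4 in replicate 1, all in the IGORF 54 nt upstream of SNR57. In replicates 2 and 1, the 6 beside SNR190 and SNR128 held 6 and 0 reads, the 9 beside SNR67 and SNR53 held 1 and 1, and the 3 beside SNR41, SNR70 and SNR51 held none. Only 1 IGORF lay beside a snoRNA gene inside an intron, SNR18 within EFB1, which encodes a translation elongation factor, and it had 1 read in replicate 2 and 0 in replicate 1.

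Downstream of snoRNA genes, 113 IGORFs held 30 reads in replicate 2 and 9 in replicate 1. A read was found in 7.96% (3.71% to 14.6%) in replicate 2 and in 2.65% (0.551% to 7.56%) in replicate 1. These intervals hold the backgrounds of 4.89% and 2.07%. Of the reads downstream of snoRNA genes, 20 in replicate 2 and 7 in replicate 1 fell in the 43 IGORFs that are also upstream of a CDS. Of these 43, 14.0% (5.30% to 27.9%) and 2.33% (0.0589% to 12.3%) had a read, beside 8.81% and 4.58% over all IGORFs upstream of a CDS. The highest was the IGORF 89 nt downstream of SNR13, with 14 reads in replicate 2 and 7 in replicate 1, which ends 4 nt before the start of TRS31, a subunit of the TRAPP vesicle-tethering complex. The one 4 nt downstream of SNR56 had 8 reads in replicate 2 and 0 in replicate 1. For the SNR13 IGORF, the position behind a snoRNA gene and that before a coding gene cannot be told apart.

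**Figure D3:**
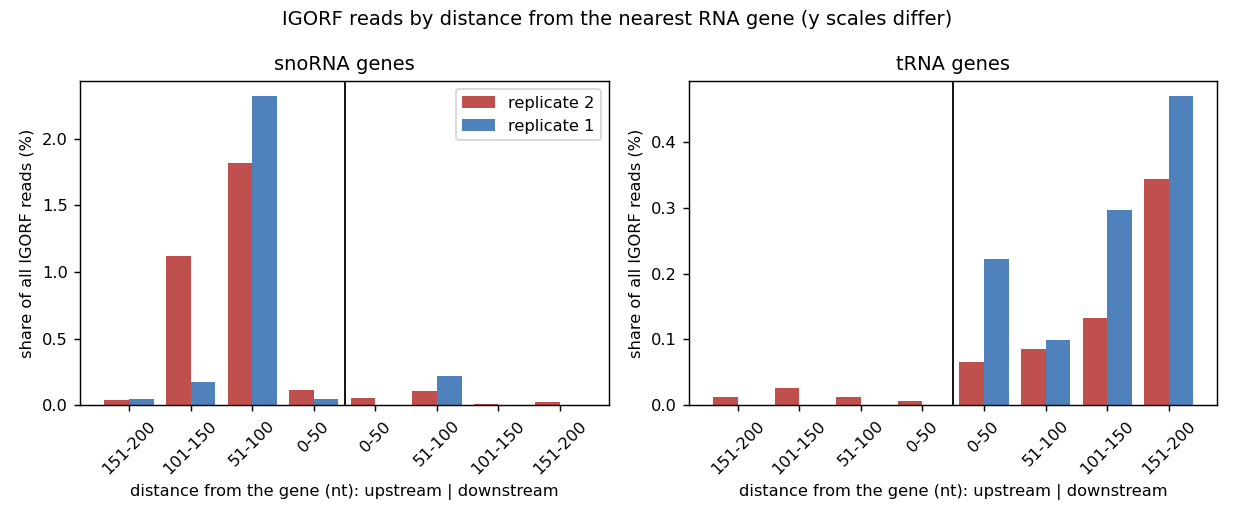
Share of all IGORF reads (percent, y axis) held by IGORFs in 50-nt classes of distance from the RNA gene (nt, x axis), for snoRNA and tRNA genes, upstream and downstream, in replicates 2 and 1. The classes from over 50 to 150 nt upstream of snoRNA genes hold most reads, and the tRNA downstream classes are highest over 150 nt.

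The reads upstream of snoRNA genes were not spread evenly over distance, as the plot of read share by distance shows. IGORFs at 0 to 50 nt held 17 reads in replicate 2 and 2 in replicate 1. Those over 50 and up to 100 nt away held 275 and 94, those up to 150 nt held 169 and 7, and those up to 200 nt held 6 and 2. The middle classes are those of SNR78, SNR87, SNR60 and SNR62. By number of IGORFs read, the classes had 6 of 47, 7 of 45, 2 of 31 and 3 of 43 in replicate 2. These are 12.8%, 15.6%, 6.45% and 6.98%, against a background of 4.89%. In replicate 1 the numbers were 2, 7, 1 and 2, or 4.26%, 15.6%, 3.23% and 4.65%, against 2.07%. The exact intervals of the classes overlap in each library.

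IGORFs upstream of tRNA genes were nearly unread. The 444 of them held 9 reads in replicate 2, or 0.0595% of its IGORF reads, and 0 in replicate 1. A read was found in 6 of 444 in replicate 2, or 1.35% (0.497% to 2.92%), below the background of 4.89%. In replicate 1 it was 0 of 444, which allows a share of up to 0.676%, below the background of 2.07%. With no CDS near on the same strand, 422 remained, of which 6 in replicate 2 and 0 in replicate 1 had a read. The 6 are 1.42%, against 3.71% of all such IGORFs in that library. On the strand opposite to the tRNA gene, the 437 upstream IGORFs held 12 reads in replicate 2 and 2 in replicate 1. Low counts were thus found on both strands there.

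IGORFs downstream of tRNA genes were read at about the rate of IGORFs in general. The 574 of them held 95 reads in replicate 2 (0.628% of IGORF reads) and 44 in replicate 1 (1.08%). At least 1 read was counted in 34, or 5.92% (4.14% to 8.18%), in replicate 2 and in 15, or 2.61% (1.47% to 4.27%), in replicate 1. The 187 that also lie upstream of a CDS held 57 of the reads of replicate 2 and 26 of those of replicate 1. A read was found in 10.2% (6.23% to 15.4%) of these in replicate 2 and in 5.88% (2.97% to 10.3%) in replicate 1, beside 8.81% and 4.58% over all 17374 IGORFs upstream of a CDS. The 382 with no CDS near on the strand held 35 reads in replicate 2 and 18 in replicate 1. A read was found in 3.66% (2.02% to 6.07%) of these in replicate 2 and in 1.05% (0.286% to 2.66%) in replicate 1, beside 3.71% and 1.30%. All 4 intervals hold the value of IGORFs in the same surrounding.

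The tRNA downstream reads were highest in the class farthest from the gene. At 0 to 50 nt, 168 IGORFs held 10 reads in replicate 2 and 9 in replicate 1. The next class, up to 100 nt, had 13 reads in replicate 2 and 4 in replicate 1. The class up to 150 nt had 20 and 12, and the 106 IGORFs of the class up to 200 nt had 52 and 19. Of the last class, 31 and 16 reads fell in the 37 IGORFs that also lie upstream of a CDS. Over all RNA classes, the 259 IGORFs in the last 50 nt inside the limit held 64 reads in replicate 2 and 21 in replicate 1. The 224 in the 50 nt beyond it held 41 and 7.

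Among single IGORFs downstream of tRNA genes, the highest by mean share lay 39 nt downstream of YNCL0032C, a tRNA-Leu gene, with 4 reads in replicate 2 and 9 in replicate 1. It is the sequence printed last above, and no CDS lies within 200 nt of it on the strand. The tRNA-Arg gene YNCE0028C had 2 overlapping IGORFs downstream. The one at 184 nt held 7 reads in each library and lies 146 nt upstream of BUR6, a subunit of the NC2 transcription regulator. The one at 156 nt held 10 in replicate 2 and 2 in replicate 1. Another tRNA-Arg gene, TRR4, had an IGORF at 167 nt with 12 reads in replicate 2 and 1 in replicate 1. Each of these had fewer than 10 reads in at least 1 library, so their order within the list is not resolved.

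Several of the remaining tRNA neighbours also lie just in front of coding genes. Downstream of YNCC0010C, a tRNA-Gln gene, the IGORF at 195 nt held 4 reads in each library and ends 4 nt before RHB1, a Rheb-type GTPase. That at 116 nt held 3 in replicate 2 and 2 in replicate 1. Downstream of IMT1, an initiator tRNA-Met gene, the IGORF at 70 nt held 6 reads in replicate 2 and 1 in replicate 1 and lies 31 nt before PEX27, a peroxisomal membrane protein. The one at 200 nt from YNCI0009W, a tRNA-Thr gene, held 1 in replicate 2 and 2 in replicate 1 and lies 16 nt before MNT3, a mannosyltransferase. The one 96 nt from YNCP0016W, also tRNA-Thr, held 2 in replicate 2 and 3 in replicate 1. Downstream of SUF2, a tRNA-Pro gene known for frameshift suppressor alleles, the IGORF at 124 nt held 0 reads in replicate 2 and 6 in replicate 1, and that at 186 nt held 3 and 2.

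By amino acid, the 64 IGORFs beside tRNA-Arg genes held 36 reads in replicate 2 and 12 in replicate 1, the largest sum. Most of this sum lay beside YNCE0028C, with 17 and 9 reads, and TRR4, with 12 and 1. IGORFs beside tRNA-Ser, tRNA-Phe, tRNA-Tyr and tRNA-Cys genes held none in either library. Group sizes differ and no background is set beside the sums by amino acid or by intron, so none is read as high or low. The 245 beside tRNA genes with an intron held 11 reads in replicate 2 and 9 in replicate 1. The 791 beside genes without one held 93 and 35. Of the 255 tRNA genes with an IGORF in reach, 37 had a read in at least 1 library and 8 in both, against 22 and 8 of the 65 snoRNA genes.

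No read was counted beside spliceosomal or ribosomal RNA genes. The 29 IGORFs beside the genes of U1, U2, U4, U5 and U6 had 0 reads in both libraries, which allows a share with a read of up to 10.3%. The 16 beside rRNA genes also had 0, which allows up to 18.8%. These 16 lie downstream of the 4 genes RDN5-2 to RDN5-5 and have copies elsewhere in the genome. How reads with several positions were counted is not known here, and its part in these counts of 0 was not tested. Such small groups cannot show a difference from the background of 4.89% and 2.07%.

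**Figure D4:**
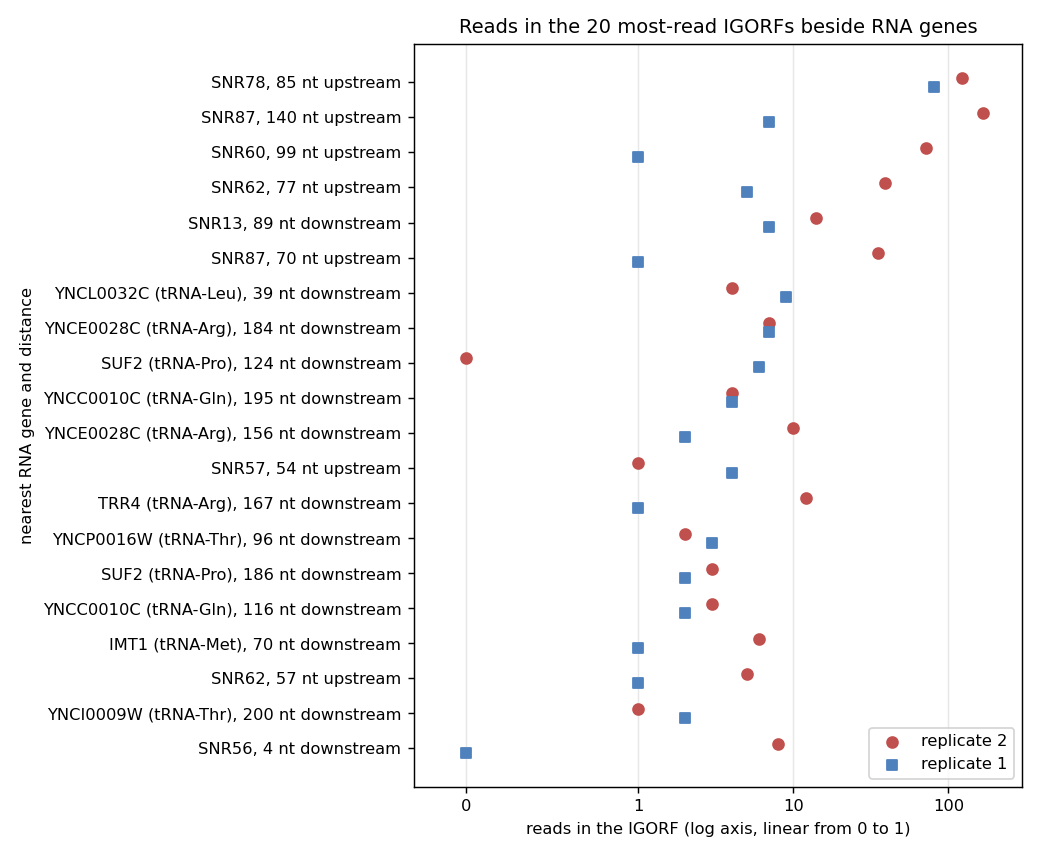
Read counts (x axis, log scale) of the 20 RNA-flanking IGORFs with the highest mean share of IGORF reads, in replicate 2 and replicate 1. The counts are not scaled to the IGORF total of each library, and no intervals are drawn. The SNR78 IGORF leads in replicate 1 and the far SNR87 IGORF leads in replicate 2.

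The libraries ranked these IGORFs differently, as the plot of the 20 leading IGORFs shows. With at least 10 reads on average, 96 IGORFs could be tested by an exact binomial split of their reads against the IGORF totals, of which 49% were called at an adjusted p under 0.05. Of all 96, 31.2% were called higher in replicate 2 and 17.7% lower. Among 6 RNA-flanking IGORFs tested, 4 were called, 3 higher and 1 lower. Their median log2 ratio of replicate 2 to replicate 1 was 1.77, against 0.68 over the 96. The test compares these libraries beyond counting error and says nothing of conditions.

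The SNR78 IGORF was the one called lower. Its share in replicate 2 was 0.404 times that in replicate 1 (exact interval 0.303 to 0.542, adjusted p = 1.38e-08). This call depends on the scale. The log2 ratio was -1.31 by IGORF totals and 3.69 by CDS totals, where the IGORF was called higher in replicate 2. By TMM it was -0.21 and by DESeq2 size factors 0.0029, and neither passed the exact binomial test (adjusted p = 0.34 and 1.0). The far SNR87 IGORF was 6.40-fold higher in replicate 2 (exact interval 3.04 to 16.2, adjusted p = 2.79e-09). The SNR60 IGORF, with a single read in replicate 1, was 19.3-fold higher (exact interval 3.36 to 774, adjusted p = 4.72e-06). The near SNR87 IGORF was 9.39-fold higher (exact interval 1.58 to 381, adjusted p = 0.0105). The SNR62 IGORF at 2.09-fold (exact interval 0.825 to 6.81) and the SNR13 IGORF at 0.537-fold (exact interval 0.203 to 1.57) did not pass, with adjusted p = 0.205 and 0.257. The SNR62 IGORF was called higher in replicate 2 under CDS totals, TMM and DESeq2 size factors, and the SNR13 IGORF under CDS totals. Both SNR87 IGORFs and the SNR60 IGORF were called higher in replicate 2 under each of these scalings. Summed over the set, the ratio was 1.02 for replicate 2 over replicate 1 (exact interval 0.858 to 1.23), and without the SNR78 IGORF it was 1.68 (1.32 to 2.16).

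Reads lay mainly in RNA-flanking IGORFs that hold an in-frame ATG, the codon at which yeast ribosomes usually start. An ATG was present in 613 of the 1375, or 44.6%, against 44.0% of all IGORFs. Those 613 held 565 reads in replicate 2 and 149 in replicate 1, while 762 without one held 38 in replicate 2 and 9 in replicate 1. Of the 20 read in both libraries, 17 had an ATG. The same count for other IGORFs read in both libraries is not set beside it, so it is not read as a trait of the set. The sums rest largely on the snoRNA neighbours: without those of SNR78, SNR87, SNR60 and SNR62, 600 IGORFs with an ATG held 121 reads in replicate 2 and 53 in replicate 1, and 753 without one held 32 and 8. Among all IGORFs outside the set, those with an ATG held 7099 reads in replicate 2 and 1733 in replicate 1. Those without one held 7414 and 2166, of which a single IGORF gave 3344 and 658, and without it 4070 and 1508 remained. By IGORFs with a read, the set and the others were alike in direction. In replicate 2, 8.16% of RNA-flanking IGORFs with an ATG and 2.49% of those without had a read, against 7.15% and 3.10% of the other IGORFs. In replicate 1 these shares were 4.08% and 0.656%, against 2.77% and 1.51%. The difference between the set and the others was not tested. RNA-flanking IGORFs with an ATG were also longer, with a median of 96 nt, against 84 nt without one.

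Length and base composition of the set were close to those of all IGORFs. Its median length was 90 nt, against 93 nt over all IGORFs, and its median GC content 34.5%, against 35.7%. The largest overlap with an RNA gene was 9 nt, so the set holds almost none of the RNA sequences themselves. The 33 overlapping IGORFs held 2 reads in replicate 2 and 0 in replicate 1. The 17 with repeated sequence held 0.

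Footprints were also counted on the genes of the proteins that form particles with these snoRNAs. Counts per 1000000 CDS reads (CPM), not corrected for length, were 622 in replicate 2 and 874 in replicate 1 for NOP1, the methyltransferase of C/D particles. In the same order of libraries, its partners NOP56, NOP58 and SNU13 had 707 and 620, 590 and 716, and 246 and 449 CPM. For the H/ACA particle, the pseudouridine synthase CBF5 had 1485 and 1151, GAR1 133 and 267, NHP2 113 and 225, and NOP10 431 and 375. These values describe the 8 genes only and are not set against other CDSs.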

How the data were processed

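Ribosome profiling counts of 2 replicate libraries of BY4742 were used. Per the file headers, the deposited tables hold unscaled read counts for each IGORF and each CDS. Cutadapt, Bowtie and SAMtools and the build sacCer3 are named, per the submitters' processing notes. The counting tool, the handling of multiply placed reads and any selection by length or frame are not stated in these sources, and each could change which IGORF receives a read.

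IGORF identifiers were read as 1-based R64 coordinates: all 78989 end in their only in-frame stop codon. Distances to RNA genes and to CDSs came from the RefSeq R64 annotation (369 nuclear RNA genes). An IGORF near several RNA genes was classed by the nearest. The 26 mitochondrial RNA genes had no IGORF to set beside them.

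Read shares have 95% Wilson intervals, IGORF shares exact binomial ones, and a count of 0 allows 3 reads or IGORFs of the total. Without molecular identifiers, reads cannot be taken as separate molecules, so intervals cover counting error only. The split test took IGORFs averaging 10 reads or more, using a two-sided exact binomial test against the IGORF totals with Benjamini-Hochberg adjustment, threshold 0.05 and a pseudocount of 0.5 reads for log2 ratios. Scaling alternatives used edgeR 4.0.16 and DESeq2 1.42.0 (R 4.3.3). The rest was run in Python 3.11.15 with numpy 2.4.6, scipy 1.17.1 and pandas 2.3.3. IGORFs named are the 20 with the highest mean share of IGORF reads, those with 10 reads in both libraries, the leading 3 of each RNA class and the 5 largest called ratios in each direction, plus the 5 RNA genes with most reads. The members, lists and tests were chosen with earlier results of these data known. Alternatives changed the distance, the CDS surroundings, the minimum count, the scaling and the library used.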

Additional observations from a re-analysis of the deposited data

How the results depend on the processing

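The share of IGORF reads in RNA-flanking IGORFs (3.94%, mean of the libraries) was 2.59% with a limit of 100 nt, 0.261% with 50 nt and 0.00662% with overlap only. Narrower limits also cover fewer bases. Up to 50 nt, IGORFs upstream and downstream of tRNA genes alone covered 0.175% and 0.207% of IGORF bases, and overlapping IGORFs covered 0.0494%. At 50 nt and with overlap only, the read share thus lay below the base share. The read share was 9.74% among IGORFs with no same-strand CDS within 200 nt, 4.89% without the IGORF that led the whole table and 5.01% with a mean of at least 2 reads. It was 2.54% without the SNR78 IGORF and 1.26% without the IGORFs of SNR78, SNR87, SNR60 and SNR62, both alternatives chosen after seeing the data. The libraries alone gave 3.89% to 3.99%. The 20 IGORFs read in both libraries became 12 at 100 nt, 3 at 50 nt, 0 with overlap only and 11 without a CDS near. They became 11 with 2 reads required and 5 with 5, and 1 library alone gave 30 to 69. The 1 IGORF with at least 10 reads in both became 0 at 50 nt and 0 with overlap only, and 1 library alone gave 1 to 8. The 4 split calls became 4 to 6 under other scalings and minimum counts, but not all were the same IGORFs: under TMM and DESeq2 size factors the SNR78 call was lost and the SNR62 IGORF was called higher (log2 2.04 and 2.26). The summed log2 ratio of replicate 2 to replicate 1 (0.03) was 5.03 with CDS totals, 1.13 with TMM, 1.35 with DESeq2 size factors, 0.75 without the SNR78 IGORF and -0.35 at 100 nt. With overlap only it had no value, since replicate 1 had 0 reads. The SNR78 ratio of -1.31 was 3.69 with CDS totals, a reversal, and near 0 with DESeq2 size factors (0.0029) and -0.21 with TMM, neither past the threshold. Under CDS totals all 6 tested IGORFs were called higher in replicate 2, including SNR62 (5.94) and SNR13 (4.05, against -0.95 by IGORF totals). The SNR60 and both SNR87 IGORFs kept their direction and call under each scaling. Single reads decide most counts at this depth. No paired analysis was possible because the series has 1 group of 2 libraries.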

Other observations

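Sequence motifs of the RNA genes were counted in the IGORFs on their own strand, as a description of letters and not of sites. The B box GTTCGANNC, part of the internal promoter of tRNA genes, was found in 200 of 275 tRNA genes (72.7%). It was found in 8 of the 1375 RNA-flanking IGORFs (0.582%), against 0.288% of all IGORFs of the same lengths, and on either strand in 13 (0.945%, against 0.539%). On the own strand, these were 0 of the 574 downstream of tRNA genes and 2 of the 444 upstream (0.450%, against 0.271%). Beside snoRNA genes they were 2 of the 166 upstream and 0 of the 113 downstream, and the rest lay in the smaller groups. The difference from the background was not tested. The C box ATGATGA was found in 31 of 76 snoRNA genes (40.8%) and in 0 of the 166 IGORFs upstream of snoRNA genes, against 1.02% of IGORFs of the same lengths. On either strand it was found in 2 (1.20%, against 2.49%). The D box CTGA was found in 17.5% of that group, against 24.3% of IGORFs of the same lengths. The run TTTTT, at which RNA polymerase III ends transcripts, was found in 47.9% of the 574 IGORFs downstream of tRNA genes, against 40.7% of IGORFs of the same lengths. It was found in 34.7% of the 444 upstream of tRNA genes, against 39.9%, and in 56.6% of those upstream of snoRNA genes, against 43.0%.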
